A study of Homo sapiens with 8 samples.

Results

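The amino acid response genes that ATF4 is known to control, together with cytosolic aminoacyl-tRNA synthetase genes, were examined in LP-1 cells by RNA-seq. Of the 42 genes listed by symbol, all had a row among the 63129 genes of the deposited table, and 40 averaged 1 RPKM or more across the 8 libraries and were tested with the other genes at that level, 14732 in all. RPKM is the number of reads on a gene per kilobase of its length, scaled by the library's mapped reads, so levels can be compared between genes. The members left untested were NUPR1, a stress-induced nuclear protein, with values from 0 to 0.0611 RPKM, and VLDLR, a lipoprotein receptor. VLDLR was measured at 0.204 and 0.172 RPKM in DMSO and 0.32 and 0.415 RPKM with SGC-CBP30, and at 0.213 and 0.151 RPKM in DMSO and 0.364 and 0.259 RPKM with CPI203. Both treated libraries thus lay above both DMSO libraries in each experiment, at a level too low to be tested.

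LP-1 cells derive from a human multiple myeloma, and the values stand for this 1 cell line. The cells were treated for 6 hr with 2.5 μM SGC-CBP30, which blocks the bromodomains of CBP and EP300, with 0.25 μM CPI203, which blocks those of the BET proteins, or with the solvent DMSO. Each compound has 2 libraries and 2 DMSO libraries of its own experiment, assigned by the naming series in the labels. The compounds were used at different doses, so their effects are set side by side and the difference is that between these treatments. Depth was estimated at 34400000 and 34100000 reads for DMSO and 50100000 and 46800000 reads for SGC-CBP30, and at 26000000 to 29700000 reads for the 4 libraries of the CPI203 experiment. Plasma cell markers were well expressed, 8 of 8 above the level for testing and 828 to 1332 RPKM in sum. The 4 B cell markers summed to at most 0.519 RPKM, the 4 T cell markers to at most 1.30 RPKM and the 4 epithelial or stromal markers to at most 0.321 RPKM. The 4 myeloid markers summed to 0.604 to 2.65 RPKM, nearly all of it CD68 at 0.313 to 2.38 RPKM, while CD14 and CSF1R were under 0.1 RPKM in every library and LYZ was at most 0.234 RPKM. A lower RPKM in these bulk samples may mean fewer cells with the transcript or less of it per cell, and these cannot be told apart.

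When amino acids run short or unfolded protein builds up, kinases such as GCN2 and PERK phosphorylate the initiation factor eIF2. General translation then slows while the ATF4 mRNA is translated better, so ATF4 is controlled largely at the level of its protein, which was not measured here. ATF4 pairs with C/EBP proteins and activates genes that make, import and load amino acids, as well as brakes on the response such as TRIB3. Myeloma cells secrete large amounts of immunoglobulin and carry a high demand for both protein folding and amino acids.

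The composite element that ATF4 and C/EBP proteins bind reads TGATGNAAN, where N is any base. It was searched on both strands in windows of 250 bases before to 50 bases after RefSeq gene starts (GRCh38.p14). Of the 29 tested members with a window, 13 held a match, which is 44.8%, against 4.45% of all 27305 genes with a window. Counted by window, 15 of 49 held a match, which is 30.6%, against 3.61% of all 35116 windows. Members were listed as genes that ATF4 is known to control or as synthetases, so the higher share is a description and no test. Among the members called with a compound (defined below), ASNS, CHAC1, SLC7A1 and SLC1A4 had a match, and all of these are shown. The called members GPT2, PYCR1 and LARS had no window and could not be searched. The element is in capitals, with 10 bases on each side, read along the strand on which it matches.

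ASNS: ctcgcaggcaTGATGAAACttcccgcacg
CHAC1: ctggcaggagTGATGCAACggcaggggag
SLC7A1: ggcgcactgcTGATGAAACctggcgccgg
SLC1A4: cggctggagaTGATGCAAAcgggagccgc

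The printed ASNS stretch, flanks included, lies at chr7:97872458-97872486 on the minus strand, and the first base of the element is 68 bases before the start. The CHAC1 stretch lies at chr15:40953251-40953279 on the minus strand, opposite to the gene, with the element 210 bases before the start. That of SLC7A1 is at chr13:29595663-29595691 on the minus strand, with the first base of the element at position 8 of the transcript. That of SLC1A4 is at chr2:64989381-64989409 on the minus strand, opposite to the gene, and the element ends at the start of 1 of the gene's transcripts. ASNS rose with both compounds, CHAC1 fell with both, SLC7A1 fell with CPI203 and SLC1A4 fell with SGC-CBP30, as described below. A match is a string of letters in the reference and not a measured binding site.

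The test was limma on log2(RPKM + 0.1), with each compound set against its own DMSO pair, and fold changes are on that scale. A gene passed the test at a Benjamini-Hochberg adjusted p under 0.05 over all 14732 genes, and was called if it also differed at least 1.5-fold. Rose and fell are used of genes that passed. Replicates come from separate libraries, which the paper describes as biological replicates with paired DMSO controls. The p-values measure the spread between these libraries, and how separate the cultures were is not stated. An exact two-sided permutation test on 2 against 2 libraries would give no p below 0.333, so every adjusted p rests on limma's model.

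With SGC-CBP30 the genes hardly moved as a group, whereas with CPI203 most of them fell and some rose. With SGC-CBP30, 2 of the 40 members were called lower, against a background of 3.79% of all genes tested, and none was called higher, against 3.47%. By limma, 9 members had a positive change at an unadjusted p under 0.05, as did 4611 of all 14732 genes. At the adjusted threshold 5 members rose and 14 fell, against 25.6% and 14.8% of all genes. This split depended on scaling, with 3 higher and 17 lower after median scaling of the libraries and 9 and 9 after quantile normalization. Over all 14732 genes the split moved too, from 3772 higher and 2173 lower to 2440 and 3118 after median scaling. After quantile normalization it was 2977 and 2340. With all 4 DMSO libraries as controls, 3 members rose and none fell, against 1409 and 710 of all 14732 genes. In that setting 1 member had a negative change at an unadjusted p under 0.05, and 16 of the 19 members that had passed no longer did. The median log2 fold change of the members with SGC-CBP30 was -0.03, against 0.07 over all genes tested.

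With CPI203, 4 members were called higher and 9 lower, against 13.4% and 14.4% of all genes, so that the number called was close to the background. Without the minimum fold, 8 rose and 26 fell, against 31.1% and 33.1% of all genes. The median log2 fold change of the members was -0.31, against -0.01 over all genes tested, and it was -0.51 with all 4 DMSO libraries as controls. Both CPI203 libraries lay below both DMSO libraries for 29 members and above them for 10, and the groups overlapped for GARS. With SGC-CBP30 the groups overlapped for 10 members, both treated libraries being lower for 18 and higher for 12. The share of all genes separated in this way was not computed, so these counts only describe the members. By order alone, full separation of 2 against 2 libraries has an exact permutation p of 0.333.

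**Figure D1:**
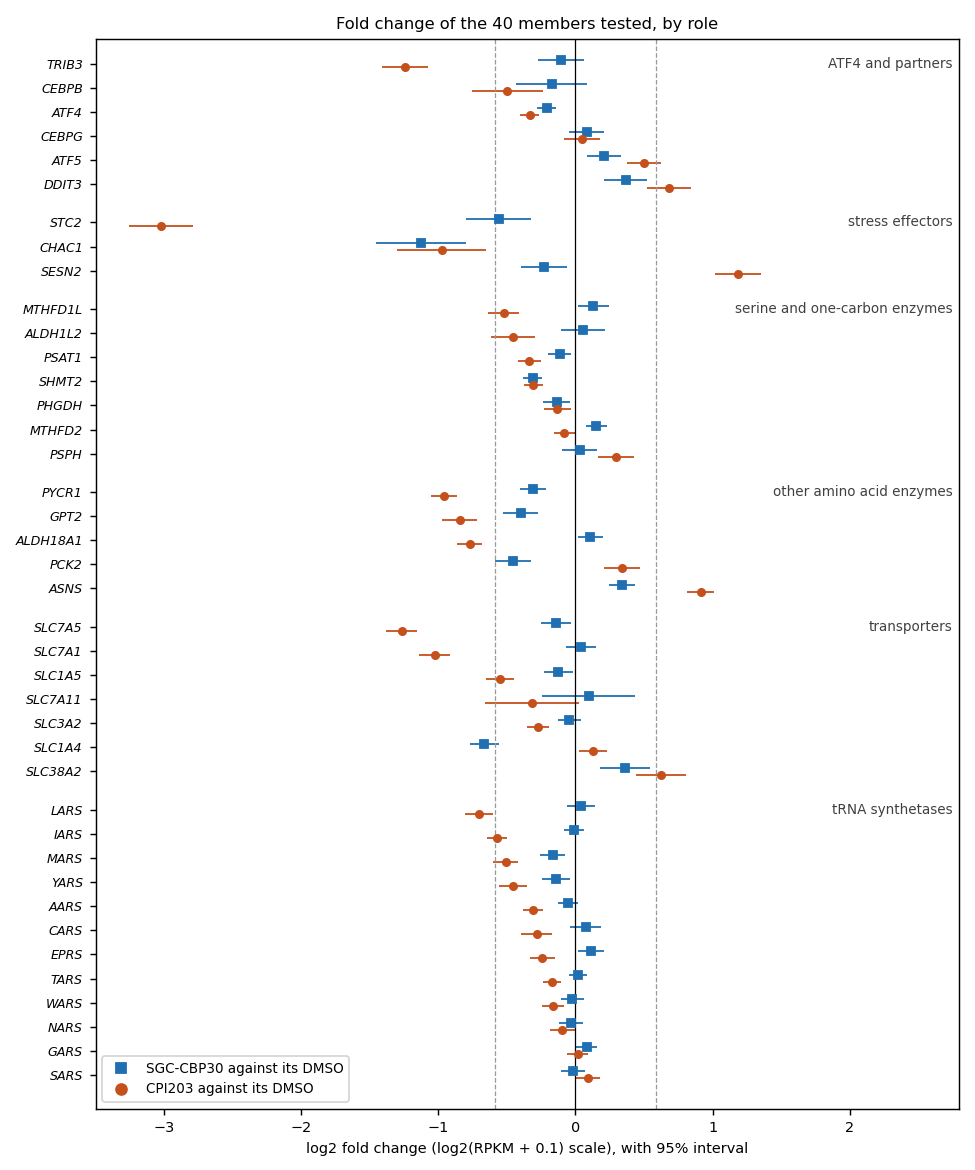
Log2 fold change of the 40 members tested, on the log2(RPKM + 0.1) scale, with SGC-CBP30 (blue squares) and CPI203 (orange circles), each against its own DMSO. Bars are 95% intervals from limma, dashed lines mark 1.5-fold, and genes are grouped by role and ordered by the CPI203 change. The CPI203 changes run from -3.02 for STC2 to 1.18 for SESN2, while most SGC-CBP30 changes lie close to 0.

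ATF4 itself was among the most abundant of the members and fell modestly with both compounds. Its mRNA was at 229 and 236 RPKM in DMSO and 204 and 198 RPKM with SGC-CBP30, and at 192 and 190 RPKM in DMSO and 151 and 151 RPKM with CPI203. Treated and DMSO libraries did not overlap in either experiment, and both CPI203 libraries were the lowest of the 8. The log2 fold change of ATF4 was -0.21 with SGC-CBP30 (SE 0.0307, limma adjusted p = 0.00073) and -0.33 with CPI203 (SE 0.0307, adjusted p = 7.88e-06). Neither reached 1.5-fold, and the first was -0.07 with an adjusted p of 0.645 when all 4 DMSO libraries served as controls. The gene lies on chromosome 22 at 39915700 to 39918691 (hg19).

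DDIT3, which encodes the stress transcription factor CHOP, moved the other way. It was measured at 10.9 and 12.1 RPKM in DMSO and 14.7 and 14.9 RPKM with SGC-CBP30, and at 12.1 and 13.1 RPKM in DMSO and 20.6 and 20.0 RPKM with CPI203. All treated libraries were above all DMSO libraries. DDIT3 was called higher with CPI203 (log2 fold change 0.68, SE 0.0702, limma adjusted p = 1.74e-05) and rose below 1.5-fold with SGC-CBP30 (0.37, adjusted p = 0.00301). The gene shares 982 bases with MARS, whose RPKM fell with both compounds.

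TRIB3, a pseudokinase that restrains ATF4, was measured at 21.8 and 22.0 RPKM in DMSO and 21.7 and 19.0 RPKM with SGC-CBP30, and at 18.3 and 16.7 RPKM in DMSO and 7.39 and 7.31 RPKM with CPI203. Only the CPI203 libraries stood apart, well below the other 6. TRIB3 was called lower with CPI203 at a log2 fold change of -1.24 (SE 0.0741, limma adjusted p = 4.90e-07), while its change with SGC-CBP30 was -0.11 (adjusted p = 0.279). The difference between the effects was 1.14 (SE 0.105, adjusted p = 2.05e-05).

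The remaining partners moved less. ATF5, a relative of ATF4, rose with both compounds, by 0.21 with SGC-CBP30 (limma adjusted p = 0.0148) and 0.50 with CPI203 (adjusted p = 2.85e-05). It shares 1062 bases with NUP62, a nuclear pore gene that fell in both comparisons (-0.28 and -0.62). CEBPB, a C/EBP partner, fell with CPI203 (-0.50, adjusted p = 0.00351), and was called lower at -0.60 when the second CPI203 library was left out. CEBPG, the other C/EBP partner, did not pass with either compound (0.08 and 0.05).

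Of the 3 stress effectors tested, 2 were called lower and 1 higher with CPI203, against 14.4% and 13.4% of all genes, and all 3 fell with SGC-CBP30, against 14.8%. STC2 encodes stanniocalcin 2, a secreted glycoprotein induced by ER stress. It was at 13.0 and 13.5 RPKM in DMSO and 8.97 and 8.92 RPKM with SGC-CBP30, and at 8.51 and 10.3 RPKM in DMSO and 0.999 and 1.13 RPKM with CPI203. The CPI203 libraries were far below all others, and the SGC-CBP30 libraries were below their own DMSO but within the range of the other DMSO pair. With CPI203 the log2 fold change was -3.02 (SE 0.105, limma adjusted p = 2.09e-08), which put STC2 26th among the falls of all 14732 genes. With SGC-CBP30 it was -0.56 (adjusted p = 0.00273), just under 1.5-fold. The latter was called at -0.64 after median scaling, -0.65 after quantile normalization and -0.59 without the first DMSO library of that experiment, and was -0.31 (adjusted p = 0.27) against all 4 DMSO libraries.

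CHAC1, a glutathione-degrading enzyme and one of the most sensitive reporters of ATF4 activity, fell with both compounds. It was at 7.83 and 7.78 RPKM in DMSO and 3.93 and 3.16 RPKM with SGC-CBP30, and at 3.17 and 2.56 RPKM in DMSO and 1.33 and 1.48 RPKM with CPI203. Treated libraries were below their own DMSO in each experiment, but the DMSO libraries of the CPI203 experiment were as low as those treated with SGC-CBP30. The log2 fold change was -1.13 with SGC-CBP30 (SE 0.145, limma adjusted p = 0.000353) and -0.97 with CPI203 (SE 0.145, adjusted p = 0.000218), and the difference of -0.15 did not pass (95% interval -0.61 to 0.31, adjusted p = 0.565). With all 4 DMSO libraries as controls the change with SGC-CBP30 was -0.42 and no longer passed (adjusted p = 0.558).

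SESN2, an inhibitor of mTORC1 that responds to leucine, went in opposite directions. It was at 10.4 and 10.9 RPKM in DMSO and 9.21 and 8.92 RPKM with SGC-CBP30, and at 7.35 and 7.30 RPKM in DMSO and 15.7 and 17.9 RPKM with CPI203. The CPI203 libraries were the highest of the 8 and their own DMSO the lowest. SESN2 was called higher with CPI203 (log2 fold change 1.18, SE 0.0756, limma adjusted p = 7.44e-07) and fell below 1.5-fold with SGC-CBP30 (-0.23, adjusted p = 0.0367). The difference of -1.41 was called (SE 0.107, adjusted p = 6.29e-06). With all 4 DMSO libraries as controls the SGC-CBP30 change was 0.04 (adjusted p = 0.907).

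**Figure D2:**
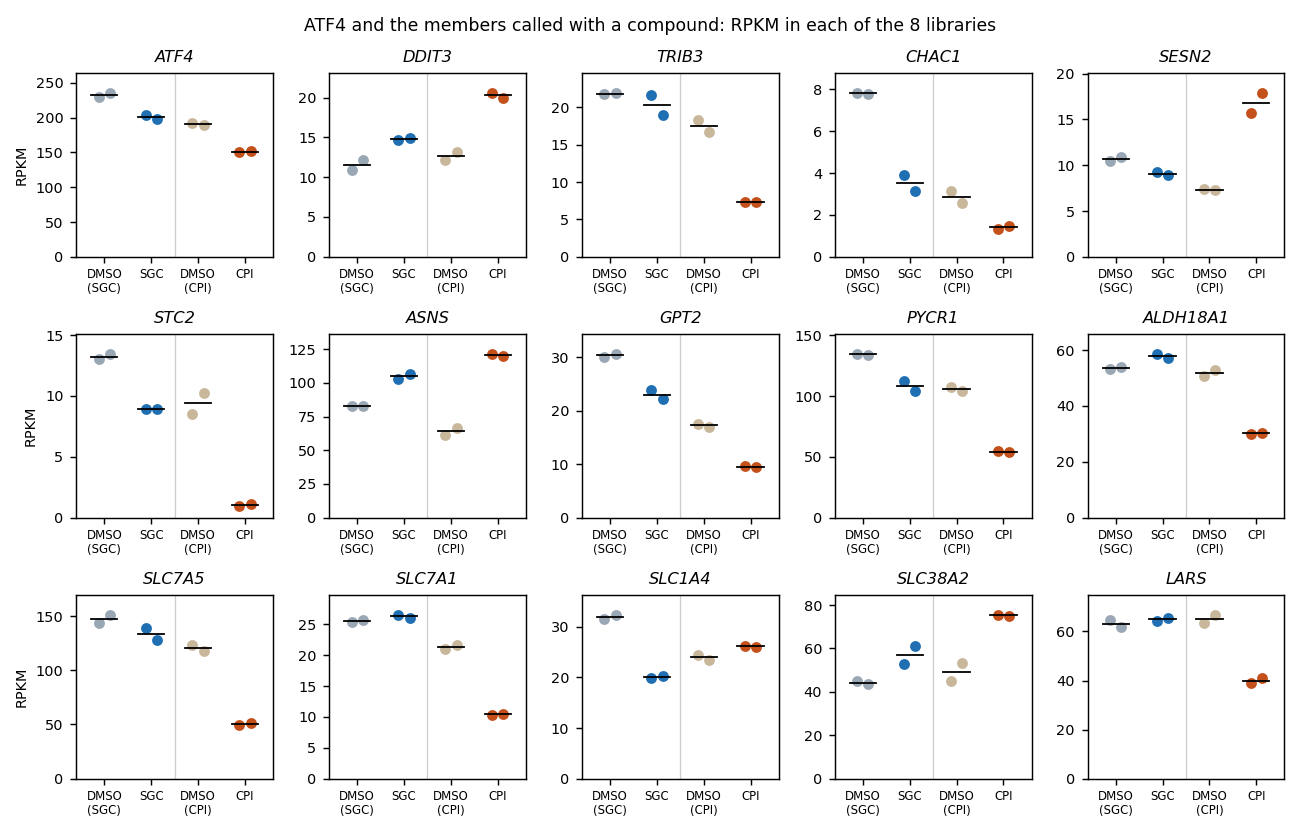
RPKM of ATF4 and of the 14 members called with a compound, in each of the 8 libraries, with linear axes from 0. Points are libraries, black lines group means, and each compound (SGC, CPI) stands to the right of its own DMSO. CHAC1, GPT2 and STC2 show how far the DMSO pairs differ, and SESN2 and ASNS are highest with CPI203.

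The enzymes that make serine and feed its carbon into the folate cycle were abundant and changed less than 1.5-fold against their own DMSO. None of the 7 was called with either compound, against 7.26% of all genes with SGC-CBP30 and 27.8% with CPI203. By limma 3 had a negative and 2 a positive change with SGC-CBP30 at an unadjusted p under 0.05, and 6 and 1 with CPI203. Of all 14732 genes, 2635 had a negative and 4611 a positive change by that rule with SGC-CBP30, and 5119 and 4802 with CPI203. At the adjusted threshold 5 fell and 1 rose with CPI203, against 33.1% and 31.1% of all genes. With all 4 DMSO libraries as controls 3 were called lower with CPI203, namely PSAT1, SHMT2 and ALDH1L2, against 2233 of all 14732 genes. SHMT2, the mitochondrial enzyme that splits serine into glycine and a one-carbon unit, was the most abundant member at 285 and 286 RPKM in DMSO and 231 and 229 RPKM with SGC-CBP30. In the other experiment it was at 192 and 189 RPKM in DMSO and 150 and 157 RPKM with CPI203. It fell by nearly the same amount with both compounds, -0.31 with each (limma adjusted p = 8.14e-05 and 1.54e-05), and the difference was -0.01 (95% interval -0.10 to 0.09). The DMSO pairs differed by a called -0.59, and against all 4 DMSO libraries the changes were -0.02 (adjusted p = 0.951) and, called, -0.60 (adjusted p = 0.0244).

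PHGDH and PSAT1, the enzymes of the opening steps of serine synthesis, also fell with both compounds. PHGDH changed by -0.14 and -0.13 (limma adjusted p = 0.0309 and 0.0222) and PSAT1 by -0.12 and -0.34 (adjusted p = 0.0349 and 3.16e-05). Against all 4 DMSO libraries the SGC-CBP30 changes turned positive and did not pass, at 0.23 for PHGDH (adjusted p = 0.52) and 0.14 for PSAT1 (adjusted p = 0.576). The CPI203 change of PHGDH was then -0.50 and did not pass (adjusted p = 0.101), while that of PSAT1 was called at -0.60 (adjusted p = 0.016). PSPH, which completes the pathway, rose with CPI203 (0.30, adjusted p = 0.00127), against 0.03 with SGC-CBP30 (adjusted p = 0.712), and this difference of -0.27 passed (adjusted p = 0.0214). Against all 4 DMSO libraries the CPI203 change of PSPH was 0.07 (adjusted p = 0.714). The difference was then 0.19 and did not pass (adjusted p = 0.401). The mitochondrial folate enzymes also split, since MTHFD1L and ALDH1L2 fell with CPI203 (-0.52 and -0.45), while MTHFD2 rose slightly with SGC-CBP30 (0.15, adjusted p = 0.00594). Within the MTHFD1L locus lies a gene named RP1-292B18.1, at 52.2 RPKM on average, which shares 405 bases with it.

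Of the 5 other enzymes of amino acid and related carbon metabolism, 3 were called lower and 1 higher with CPI203, against 14.4% and 13.4% of all genes. ASNS, asparagine synthetase and a classical ATF4 target, was at 82.8 and 82.7 RPKM in DMSO and 103 and 107 RPKM with SGC-CBP30. In the CPI203 experiment it was at 61.3 and 66.6 RPKM in DMSO and 122 and 120 RPKM with the compound. Both treated pairs were above all 4 DMSO libraries. ASNS was called higher with CPI203 (log2 fold change 0.92, SE 0.0438, limma adjusted p = 1.32e-07) and rose below 1.5-fold with SGC-CBP30 (0.34, adjusted p = 0.000365).

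The 2 enzymes of proline synthesis from glutamate fell with CPI203. PYCR1, pyrroline-5-carboxylate reductase, was at 135 and 134 RPKM in DMSO and 113 and 104 RPKM with SGC-CBP30, and at 107 and 104 RPKM in DMSO and 54.8 and 53.8 RPKM with CPI203. ALDH18A1, which makes the substrate of PYCR1, was at 53.4 and 53.8 RPKM in DMSO and 58.7 and 57.0 RPKM with SGC-CBP30, and at 50.6 and 52.7 RPKM in DMSO and 29.9 and 30.4 RPKM with CPI203. For both, the CPI203 libraries were the lowest of the 8, and the SGC-CBP30 libraries lay below their DMSO for PYCR1 and above it for ALDH18A1. With CPI203 PYCR1 was called at -0.96 (SE 0.0421, limma adjusted p = 7.93e-08) and ALDH18A1 at -0.77 (SE 0.0407, adjusted p = 2.32e-07). With SGC-CBP30 PYCR1 fell by 0.31 on the log2 scale (adjusted p = 0.000513), and ALDH18A1 did not pass (0.11, adjusted p = 0.0567). Against all 4 DMSO libraries the SGC-CBP30 change of PYCR1 was -0.13 and did not pass (adjusted p = 0.451).

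GPT2, a mitochondrial alanine transaminase, fell with both compounds. It was at 30.1 and 30.7 RPKM in DMSO and 23.9 and 22.1 RPKM with SGC-CBP30, and at 17.5 and 17.0 RPKM in DMSO and 9.70 and 9.44 RPKM with CPI203. Each treated pair was below its DMSO, and the DMSO pair of the CPI203 experiment was below both SGC-CBP30 libraries. The log2 fold change was -0.40 with SGC-CBP30 (limma adjusted p = 0.000648) and, called, -0.84 with CPI203 (SE 0.0569, adjusted p = 1.05e-06).

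PCK2, the mitochondrial PEP carboxykinase, was not called with either compound yet had opposite signs, at -0.45 with SGC-CBP30 (limma adjusted p = 0.000334) and 0.34 with CPI203 (adjusted p = 0.000524). Its levels were 18.8 and 19.4 RPKM in DMSO against 13.7 and 14.0 RPKM with SGC-CBP30, and 11.7 and 11.3 RPKM in DMSO against 14.3 and 14.9 RPKM with CPI203. The treated libraries of both compounds thus lay between the DMSO pairs, and the difference in effect of -0.79 was called (SE 0.0814, adjusted p = 3.82e-05). Against all 4 DMSO libraries the SGC-CBP30 change was -0.09 (adjusted p = 0.812) and the CPI203 change -0.02 (adjusted p = 0.945).

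Among the 7 transporters, 2 were called lower and 1 higher with CPI203, against the same 14.4% and 13.4% of all genes. SLC7A5, the LAT1 light chain that imports leucine and other large neutral amino acids, was at 144 and 152 RPKM in DMSO and 140 and 129 RPKM with SGC-CBP30, and at 124 and 118 RPKM in DMSO and 49.1 and 51.0 RPKM with CPI203. SLC7A1, the importer of arginine and lysine, was at 25.5 and 25.6 RPKM in DMSO and 26.6 and 26.0 RPKM with SGC-CBP30, and at 20.9 and 21.6 RPKM in DMSO and 10.3 and 10.5 RPKM with CPI203. For both genes the CPI203 libraries were below the 6 others with a wide gap. SLC7A5 was called at -1.27 (SE 0.0488, limma adjusted p = 3.75e-08) and SLC7A1 at -1.03 (SE 0.0502, adjusted p = 1.50e-07). With SGC-CBP30 SLC7A5 fell slightly (-0.14, adjusted p = 0.043) and SLC7A1 did not pass (0.04, adjusted p = 0.555).

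SLC38A2 encodes SNAT2, an importer of small neutral amino acids, and it was called higher with CPI203. It was at 45.1 and 43.4 RPKM in DMSO and 52.7 and 61.2 RPKM with SGC-CBP30, and at 45.0 and 53.1 RPKM in DMSO and 75.6 and 75.2 RPKM with CPI203. Each treated pair was above its own DMSO, while 1 DMSO library of the CPI203 experiment exceeded 1 SGC-CBP30 library. The log2 fold change was 0.62 with CPI203 (SE 0.0825, limma adjusted p = 9.99e-05) and 0.36 with SGC-CBP30 (adjusted p = 0.00731). The difference of -0.26 did not pass (95% interval -0.525 to -0.0012, adjusted p = 0.0876). Without the first DMSO library of the CPI203 experiment the CPI203 change was 0.50 and no longer reached 1.5-fold.

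SLC1A4, the neutral amino acid transporter ASCT1, was the other member besides CHAC1 called with SGC-CBP30. It was at 31.6 and 32.4 RPKM in DMSO and 19.9 and 20.4 RPKM with SGC-CBP30, and at 24.4 and 23.5 RPKM in DMSO and 26.3 and 26.1 RPKM with CPI203. The SGC-CBP30 libraries were the lowest of the 8, and the CPI203 libraries were slightly above their DMSO. The log2 fold change was -0.66 with SGC-CBP30 (SE 0.0468, limma adjusted p = 1.07e-05) and 0.13 with CPI203 (adjusted p = 0.0356), and the difference of -0.79 was called (adjusted p = 1.08e-05). With all 4 DMSO libraries as controls these were -0.46 (adjusted p = 0.0617) and -0.08 (adjusted p = 0.644).

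The glutamine transporter SLC1A5, also known as ASCT2, fell with CPI203 (-0.55, limma adjusted p = 4.62e-06), and was called at -0.60 without the second DMSO library of that experiment. SLC3A2, the shared heavy chain of LAT1 and xCT, fell by 0.27 on the log2 scale with CPI203 (adjusted p = 0.000118). SLC7A11, the cystine importer xCT, was the least abundant member tested in DMSO, at 1.71 to 2.72 RPKM over the 4 DMSO libraries, and did not pass with either compound (0.10 and -0.32).

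The 12 tRNA synthetases had levels of 35.9 to 170 RPKM in the DMSO pair of the SGC-CBP30 experiment. With SGC-CBP30 their log2 fold changes ran from -0.17 for MARS to 0.11 for EPRS, and only MARS and YARS passed, both lower (limma adjusted p = 0.00928 and 0.0321). After quantile normalization 3 rose and these no longer passed. With CPI203, 9 of 12 fell, against 33.1% of all genes, and the other 3, SARS, GARS and NARS, did not pass (0.09, 0.02 and -0.09). The falls were small, with a median log2 fold change of -0.26 over the 12.

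LARS, which charges leucine onto its tRNA, was the only one of these called. It was at 64.5 and 61.7 RPKM in DMSO and 64.4 and 65.5 RPKM with SGC-CBP30, and at 63.6 and 66.9 RPKM in DMSO and 38.9 and 41.1 RPKM with CPI203. The CPI203 pair lay below the other 6 libraries, which lay close together. The log2 fold change of LARS with CPI203 was -0.70 (SE 0.0456, limma adjusted p = 8.07e-07), against 0.04 with SGC-CBP30 (adjusted p = 0.493). The isoleucine and methionine enzymes IARS and MARS followed at -0.57 and -0.51, below 1.5-fold.

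Most synthetases and cofactors outside the list also fell with CPI203. Among 11 other cytosolic synthetases and cofactors of the multisynthetase complex, 9 fell and 1 rose, and their median was -0.46 on the log2 scale, with 4 called lower, led by FARSA, the alpha subunit of the phenylalanine enzyme (-1.10, limma adjusted p = 5.14e-08). Of the 17 mitochondrial synthetases, 13 fell and the other 4 did not pass, with a median of -0.27, and 4 were called lower, led by EARS2, the mitochondrial glutamate enzyme (-0.90, adjusted p = 1.02e-06). Of all genes tested, 33.1% fell with CPI203 and 14.4% were called lower. With SGC-CBP30 the mitochondrial group leaned the other way, with 9 of 17 higher at an adjusted p under 0.05 and a median log2 fold change of 0.18, while 25.6% of all genes were higher by that rule. After median scaling these were 6 of 17, with 1 lower.

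The difference between the effects, SGC-CBP30 minus CPI203, passed for 30 of the 40 members. It was called for 8 with a positive value, against 14.8% of all genes, and for 3 with a negative value, against 9.68%. Without the minimum fold these numbers were 23 and 7, against 29.3% and 21.0%. Positive values, meaning lower with CPI203 relative to SGC-CBP30, were called for STC2 (2.46), TRIB3 (1.14), SLC7A5 (1.13), SLC7A1 (1.07), ALDH18A1 (0.88), LARS (0.75), MTHFD1L (0.66) and PYCR1 (0.65). The limma adjusted p of these 8 was at most 5.67e-05. Negative values were called for SESN2 (-1.41), PCK2 (-0.79) and SLC1A4 (-0.79), the only members that passed with both compounds in opposite directions. For ASNS the difference was -0.58 (SE 0.0619, adjusted p = 5.26e-05), just under 1.5-fold, so the rise with CPI203 was the larger against its own DMSO. With all 4 DMSO libraries as controls this was -0.20 and did not pass (adjusted p = 0.27). The differences of PCK2 (-0.07, adjusted p = 0.837) and SLC1A4 (-0.38, adjusted p = 0.081) then did not pass either. Those of SESN2 and of the 8 positive members stayed called.

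The members did not start from the same level in the experiments. In the DMSO pair of the CPI203 experiment, 5 members were called lower than in that of the SGC-CBP30 experiment, against 3.91% of all genes, and none was called higher, against 3.93%. Without the minimum fold, 27 were lower, against 21.5%, and 1 was higher, against 20.3%. That member was WARS, the tryptophan enzyme (0.17, limma adjusted p = 0.00466). It was also the only member with a positive change at an unadjusted p under 0.05, against 3655 of all 14732 genes. The median log2 difference was -0.29, against 0.01 over all genes tested.

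CHAC1 differed most between the DMSO pairs (-1.42, limma adjusted p = 7.84e-05), followed by GPT2 (-0.81), PHGDH (-0.73), PCK2 (-0.72) and SHMT2 (-0.59). PHGDH was at 87.2 and 93.4 RPKM in one DMSO pair and 54.6 and 53.8 RPKM in the other, and differed far less with either compound. The summed RPKM of the members tested was 3111 and 3154 in the DMSO pair of SGC-CBP30 and 2594 and 2601 in that of CPI203. With treatment it was 3008 and 2976 with SGC-CBP30 and 2205 and 2191 with CPI203. The compared DMSO libraries are the controls of the treatments, and experiment, culture and sequencing cannot be told apart.

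**Figure D3:**
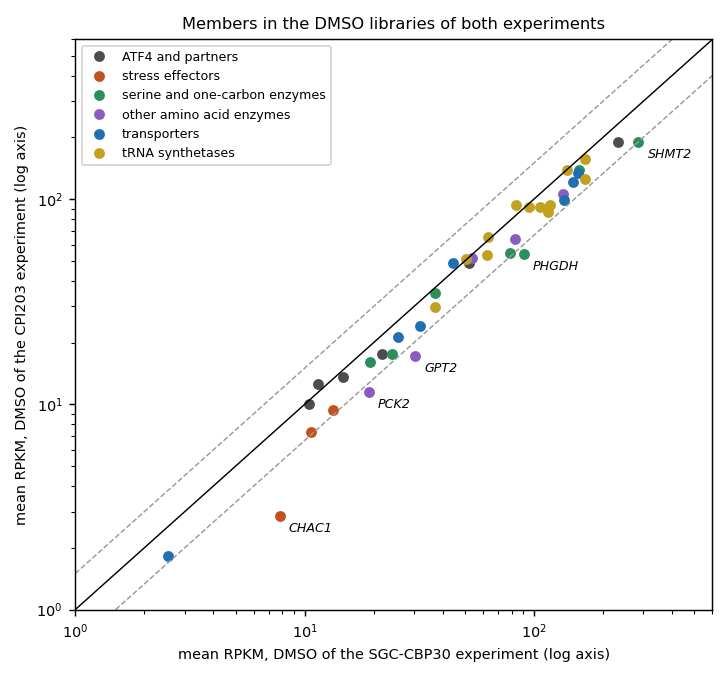
Mean RPKM of each of the 40 members tested in the DMSO pair of the SGC-CBP30 experiment (x axis) and of the CPI203 experiment (y axis), both on log axes, coloured by role. The solid line marks equal levels and dashed lines 1.5-fold, and the 5 members called are named. Most points lie below the solid line, CHAC1 farthest.

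Genes that act before and beside ATF4 were examined from lists of the same pathway. Of 16 genes for eIF2, its exchange factor, kinases and phosphatase subunits, 4 rose and 11 fell with CPI203. Over all genes tested these shares were 31.1% and 33.1%. PPP1R15A, the stress-induced subunit that brings the phosphatase to eIF2, was called higher with both compounds, at 0.99 with SGC-CBP30 (limma adjusted p = 1.54e-05) and 1.80 with CPI203 (adjusted p = 5.59e-08). EIF2AK2, the kinase PKR, showed the largest called fall with CPI203 (-0.66, adjusted p = 3.58e-05). With SGC-CBP30, 3 of the 16 rose and 2 fell, against 25.6% and 14.8% of all genes.

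Of 11 other ATF4 targets, 8 were expressed highly enough to be tested, and FGF21 and GDF15, secreted stress hormones, were under 0.1 RPKM in every library. ATF3, a stress-induced relative of ATF4, was called higher with both compounds, at 1.01 with SGC-CBP30 (limma adjusted p = 3.02e-05) and 2.23 with CPI203 (adjusted p = 3.60e-08). The largest called falls were FAM129A, also known as NIBAN1, with SGC-CBP30 (-0.87, adjusted p = 1.32e-05) and CBS, cystathionine beta-synthase, with CPI203 (-0.84, adjusted p = 4.61e-06). Against all 4 DMSO libraries the SGC-CBP30 calls of ATF3 (0.70, adjusted p = 0.0534) and FAM129A (-0.39, adjusted p = 0.393) were lost. At the adjusted threshold 2 of the 8 rose and 2 fell with SGC-CBP30, against 25.6% and 14.8% of all genes. With CPI203, 3 rose and 5 fell, against 31.1% and 33.1%.

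Of 8 other amino acid transporters tested, 2 rose and 5 fell with CPI203, against 31.1% and 33.1% of all genes. The 4 called were all lower, against 14.4% of all genes, led by the glycine transporter SLC6A9 (-1.91, limma adjusted p = 1.91e-07). With SGC-CBP30, 3 rose and 3 fell, against 25.6% and 14.8%, and the amino acid transporter SLC36A4 was called higher (0.60, adjusted p = 0.0106). This call was lost after median scaling (0.52), after quantile normalization (0.53) and against all 4 DMSO libraries (0.37). Of 14 other folate and glycine genes, 5 rose and 7 fell with CPI203, against the same 31.1% and 33.1%. SLC25A32, the mitochondrial folate carrier, was called lower (-0.97, adjusted p = 1.45e-07). With SGC-CBP30, 4 rose and 5 fell, against the same 25.6% and 14.8%. SHMT1, the cytosolic counterpart of SHMT2, was called lower (-0.75, adjusted p = 9.26e-06), though at -0.54 it was not against all 4 DMSO libraries.

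Of 10 other genes of glutamate, proline and urea metabolism, 2 rose and 4 fell with SGC-CBP30, against 25.6% and 14.8% of all genes. GLUL, glutamine synthetase, was called lower at -1.40 (limma adjusted p = 1.36e-07). Its change with CPI203 was 0.15 (adjusted p = 0.0138), and the difference of -1.55 was called (adjusted p = 2.47e-07). The DMSO pairs differed by a called -0.98, and against all 4 DMSO libraries the SGC-CBP30 change of GLUL did not pass (-0.91, adjusted p = 0.0827). With CPI203, 5 of the 10 rose and 3 fell, against 31.1% and 33.1% of all genes. OAT, ornithine aminotransferase, was called higher (0.80, adjusted p = 1.99e-07), and PYCRL, another pyrroline-5-carboxylate reductase, lower (-1.05, adjusted p = 1.92e-05).

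Genes of the IRE1 and ATF6 branches of the unfolded protein response were higher in the DMSO pair of CPI203 than in that of SGC-CBP30 for 8 of 14, against 20.3% of all genes, while 1 of the 40 members was. With CPI203, 5 rose and 4 fell, against 31.1% and 33.1% of all genes. The 3 called were all lower, against 14.4%, led by XBP1, the transcription factor that IRE1 activates by splicing (-0.86, limma adjusted p = 5.35e-08). With SGC-CBP30, 1 rose and 6 fell, against 25.6% and 14.8% of all genes, and the median log2 fold change was -0.10.

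**Figure D4:**
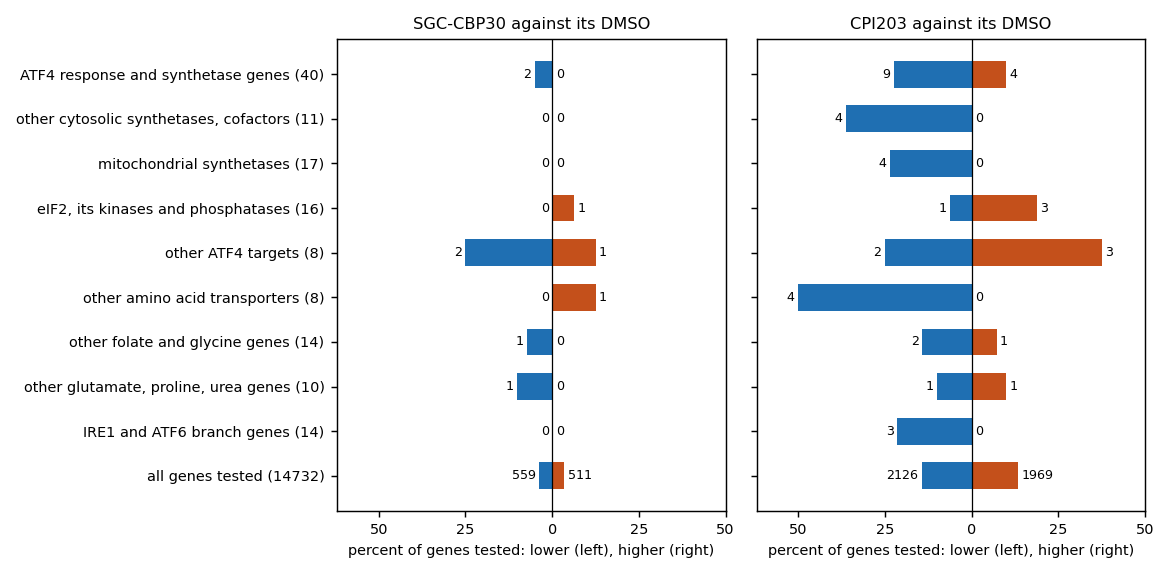
Percent of genes called lower (blue, left) and higher (orange, right) with SGC-CBP30 and CPI203, each against its own DMSO, for the members, 8 lists of related genes and all genes tested. Numbers beside the bars are counts of called genes, and the number tested is in brackets. With CPI203 the synthetase, transporter, and IRE1 and ATF6 lists hold called genes in 1 direction, and the other lists, the 40 members and all genes in both.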

How the data were processed

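RNA-seq of 8 LP-1 libraries was analysed, in 4 groups of 2 replicates set by the labels. A sequencing provider mapped the reads of total RNA, and the values deposited by the authors are RPKM, with 1 value for each gene in each library. The submitters' processing notes name TopHat 1.4.1, Cufflinks and hg19, and whether reads were assigned by strand is not given in the sources used here, so values of overlapping genes are uncertain. A further 24 columns of the table belong to no sample of this series and were not used, nor were 27 genes with a missing value. Gene symbols and hg19 positions came from the deposited annotation. Depth was estimated from steps of whole reads among low RPKM values, of which 66.7% to 79% were within 0.1 of a whole number, so it is approximate.

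Genes averaging 1 RPKM or more across the 8 libraries were tested on log2(RPKM + 0.1) with limma 3.58.1 in R 4.3.3 (4 group means, eBayes with an intensity trend, Benjamini-Hochberg). No count test was run, since the files hold no counts. On simulated data for SGC-CBP30 against its DMSO with 14732 genes, 91% of genes changed 2-fold and 98% of those changed 4-fold were called, and 2 of 14532 unchanged ones. Members, role groups and lists were chosen with earlier results of these data known. Every member is accounted for, those called with each library's value, and of each list the called gene with the largest rise and fall is named, except 1 that is not reported here. Promoter windows were RefSeq sequences of GRCh38.p14, matched by symbol or synonym for 29 of the 40 members tested. Python 3.11.15, pandas 2.3.3, numpy 2.4.6 and matplotlib 3.10.9 were used. The results were recomputed with quantile normalization or median scaling, a pseudocount of 1, no filter or one at 5 RPKM on average, a replicate block, separate fits, no trend, the 4 DMSO libraries pooled, other fold thresholds and each library left out.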

Additional observations from a re-analysis of the deposited data

How the results depend on the processing

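Over the alternatives, 702 of 718 values of single members with CPI203 and 682 of 718 with SGC-CBP30 kept their direction and their side of the call threshold. The sign changed in 6 and 31 values, of which 4 and 25 had not passed under either setting. Few members were called with SGC-CBP30, so keeping the side of that threshold says little about whether a member passed. Passing itself changed in 26 of 718 values with CPI203 and in 78 of 718 with SGC-CBP30, and was lost in 19 and 63 of these. The thresholds moved the counts most. Without a minimum fold, 5 members were called higher and 14 lower with SGC-CBP30, 8 and 26 with CPI203, and 23 positive and 7 negative for the difference. At 2-fold these were 1 lower with SGC-CBP30, 1 higher and 4 lower with CPI203, and 4 positive and 1 negative for the difference. Of all 14732 genes, 193 were lower with SGC-CBP30 at 2-fold, and 667 higher and 891 lower with CPI203. The difference was then positive for 892 and negative for 535. With a filter at 5 RPKM on average, 1 member was called lower with SGC-CBP30, since CHAC1 was not tested. With all 4 DMSO libraries as controls, 0 were called lower with SGC-CBP30, 16 lower with CPI203, and 18 positive and 1 negative for the difference. Of all 14732 genes, 304 were then called lower with SGC-CBP30 and 2233 with CPI203. The difference was called positive for 2388 and negative for 1585. Of the members that passed with SGC-CBP30, PHGDH, PSAT1, YARS, SESN2, GPT2 and SLC7A5 then turned to 0.23, 0.145, 0.0618, 0.0376, 0.0072 and 0.00478, and with CPI203, PCK2 and SLC1A4 to -0.0208 and -0.0799. TRIB3 with SGC-CBP30, which had not passed, turned to 0.0516, as did SLC7A1 to -0.0364 and LARS to -0.0347 after median scaling and SLC7A1 to -0.00455 after quantile normalization. The cause was not tested.

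The median log2 fold change of the members with SGC-CBP30 was -0.105 after median scaling, -0.00526 after quantile normalization and 0.0769 with all 4 DMSO libraries. That with CPI203 was -0.289 with a pseudocount of 1, -0.295 with the filter at 5 RPKM and with no filter, -0.318 after median scaling, -0.254 after quantile normalization and -0.508 with all 4 DMSO libraries. With each library left out in turn, it ran from -0.0438 to -0.0126 with SGC-CBP30 and from -0.316 to -0.297 with CPI203. The members called then numbered 0 higher and 2 to 3 lower with SGC-CBP30, 3 to 4 higher and 9 to 10 lower with CPI203, and 8 to 9 positive and 3 to 4 negative for the difference.

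The paper describes paired DMSO controls, but same-numbered libraries showed no positive correlation of their deviations (-0.172 and -0.0395 over 8298 genes). With the replicate block 2 members were called lower with SGC-CBP30, 4 higher and 9 lower with CPI203. With the pairing crossed in the SGC-CBP30 experiment, an alternative chosen after seeing the data, the counts were again 2, 4 and 9. The members with the lowest levels, where depth limits precision, were STC2, CHAC1 and SLC7A11, at 1.06 to 1.44 RPKM on average with CPI203.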
